A study of Mus musculus with 6 samples.

Results

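The Schlafen genes are a family of interferon-linked regulators of growth and antiviral defence, and 7 mouse members were followed here: Slfn1, Slfn2, Slfn3, Slfn4, Slfn5, Slfn8 and Slfn9. The members were picked out by gene name from the 54532 genes of the deposited tables, and no measured value entered that rule, but the family itself was taken up with earlier results of these data known. The cells were RAW264.7, a macrophage-like line derived from a mouse tumour induced by Abelson leukaemia virus. All 6 libraries came from this line, grown in DMEM with fetal bovine serum. The control group of 3 libraries was labelled wild type with no treatment tag. The other 3 libraries were labelled as ERMAP knockdown with an shRNA (a short hairpin RNA that directs degradation of a matching transcript). ERMAP is a membrane protein of the butyrophilin family. The protocol field names a lentivirus carrying the ERMAP shRNA on all 6 samples, so the labels do not settle whether the controls received any virus, and no non-targeting hairpin is described. Nothing in the labels says whether a group was 1 clone, or whether its libraries came from separate cultures. The p-values therefore measure only how these libraries vary, which may reflect technical variation.

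Schlafen proteins share a conserved amino-terminal core that in several members binds or cuts transfer RNA. The short members (Slfn1, Slfn2) hold little besides this core, the intermediate members (Slfn3, Slfn4) carry an extra central domain, and the long members (Slfn5, Slfn8, Slfn9) add a helicase-like carboxy-terminal domain. Type I interferons, acting through their receptor, JAK kinases and the transcription factors these activate, switch on many Schlafen genes in myeloid cells by way of interferon-stimulated response elements in their promoters.

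Summed counts per library ranged from 13447021 to 16602734. Counts of Ermap itself were 12, 12 and 3 in control and 10, 21 and 14 in the libraries labelled ERMAP shRNA (edgeR log2 fold change 0.81, SE 0.52, adjusted p = 0.929), so no fall of the target transcript was seen. Directions below are those of the labelled libraries against control. Control replicate 1 stood apart, with 3.69% of its counts on mitochondrial genes against 1.71% to 2.18% in the other 5 libraries. Macrophage markers summed to between 7185 and 7522 CPM (counts scaled to library size) in the 6 libraries, and edgeR called 0 of these 8 genes (2 at an unadjusted p under 0.05, and 1 called by DESeq2). At that unadjusted threshold 464 of all 12491 tested genes were higher and 380 lower. T cell markers summed to 1.52 to 1.94 CPM in control and 2.32 to 4.13 CPM in the labelled libraries, with Cd3e, Cd3d and Cd8a at 0 counts, and their part in the results was not tested. Markers of B cells, neutrophils, dendritic cells, NK cells, megakaryocytes and erythroid cells, fibroblasts and epithelium each summed to at most 2.49 CPM. In bulk RNA, a change in the number of expressing cells and a change in RNA per cell cannot be told apart.

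Of the 7 members, Slfn5, Slfn8, Slfn2 and Slfn4 rose in the libraries labelled ERMAP shRNA and 0 fell, also at an unadjusted p under 0.05 and by DESeq2. A gene was called at a Benjamini-Hochberg adjusted p under 0.05 in edgeR's quasi-likelihood test over the 12491 genes that passed a filter on low counts. In that test 1.01% of genes were called higher and 0.136% lower, and at an unadjusted p under 0.05 464 were higher and 380 lower. Slfn3 and Slfn9 were tested and not called, and Slfn1 was below the filter. Each of the 6 tested members had at least 59 counts in every library, so none passed the filter through the labelled group alone. The 4 members that rose did not overlap between groups in CPM, whereas Slfn3 and Slfn9 did. Among all tested genes 14.2% did not overlap.

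**Figure D1:**
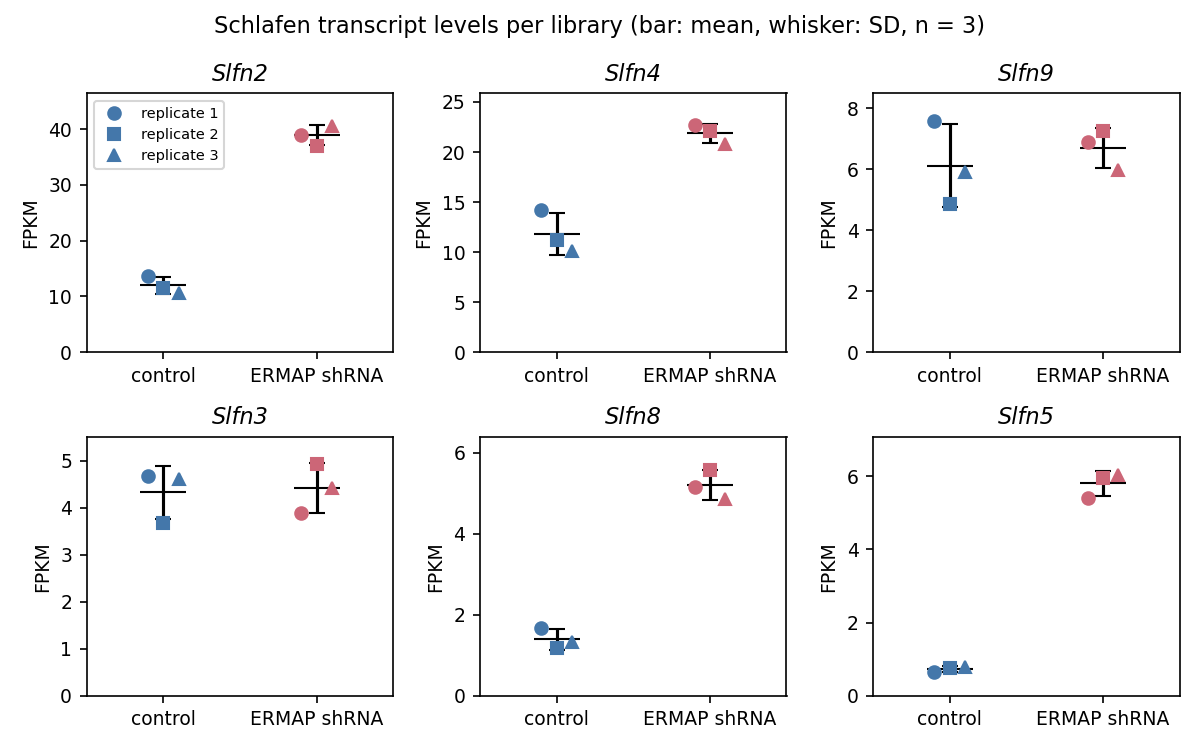
FPKM (reads per kilobase of gene length scaled to the counted reads of the library, linear axes from 0) of the 6 tested Schlafen members in each library. Symbols give the replicate number of the column name, bars the group mean and whiskers the SD (n = 3). Slfn2, Slfn4, Slfn8 and Slfn5 sit higher in every labelled library than in any control library, while the groups overlap for Slfn9 and Slfn3.

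The largest change in the family was that of the long member Slfn5, whose human counterpart is known as an interferon-induced nuclear protein. Slfn5 (ENSMUSG00000054404) lies on the plus strand of chromosome 11, from 82951349 to 82964840 in mm10. It had 59, 80 and 75 counts in control and 461, 569 and 577 in the labelled libraries, or 0.637, 0.755 and 0.778 FPKM against 5.40, 5.96 and 6.04 FPKM. Every labelled library was far above every control library, and the lowest labelled CPM was 6.96 times the highest control CPM. The fold change was 7.97 (95% interval 6.41 to 9.92), a log2 value of 2.995 (SE 0.14, edgeR adjusted p = 2.1e-05). Only 36 of the 12491 tested genes, Slfn5 included, had a log2 fold change as large.

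Slfn8 and Slfn9 are long members that lie next to each other and are close copies, yet only Slfn8 was called. Slfn8 (ENSMUSG00000035208, minus strand of chromosome 11, 83002158 to 83020810 in mm10) had 100, 81 and 82 counts in control and 285, 345 and 300 in the labelled libraries. Its level was 1.67, 1.18 and 1.32 FPKM in control and 5.16, 5.59 and 4.86 FPKM in the labelled libraries, with no overlap. Slfn8 rose 3.74-fold (95% interval 2.86 to 4.88), a log2 value of 1.90 (SE 0.17, edgeR adjusted p = 0.000933). Slfn9 (ENSMUSG00000069793, minus strand of chromosome 11, 82978390 to 82991830) had 662, 486 and 538 counts in control and 555, 652 and 537 in the labelled libraries. Its 7.57, 4.87 and 5.92 FPKM in control bracketed the 6.89, 7.24 and 5.96 FPKM of the labelled libraries. Slfn9 differed by 0.13 on the log2 scale (95% interval -0.28 to 0.53, SE 0.17, adjusted p = 0.949 by edgeR), an interval that holds folds between 0.826 and 1.44. Its sign turned without control replicate 2 (-0.021).

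The ratio between these copies restates the same values library by library and is no separate evidence. The FPKM of Slfn8 over that of Slfn9 was 0.220, 0.243 and 0.222 in control and 0.749, 0.772 and 0.815 in the labelled libraries. The groups did not overlap, and the two-sided exact permutation p was 0.1, the smallest that 3 libraries against 3 allow. The 6 pairs of members compared in this way gave p = 0.1 each (adjusted p = 0.1, exact permutation tests); Slfn8/Slfn9, Slfn5/Slfn9 and Slfn4/Slfn3 were picked after their values were seen. The longest GENCODE vM21 transcripts of Slfn8 and Slfn9 were 92.6% identical over 3496 aligned bases. Of the 100-base windows of their transcripts, 1.17% of those of Slfn8 and 0.839% of those of Slfn9 occurred unchanged in the other gene. More were shared with the pseudogene Slfn10-ps, 2.45% for Slfn8 and 3.04% for Slfn9, and windows shared with any other gene came to 3.38% and 3.71%. How the authors' counting treated reads that fit more than 1 gene is not given in the sources used here, so the counts of these copies are uncertain.

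The sequence upstream of the start sites of these 3 long genes is shown because it holds a match to the core of the interferon-stimulated response element in each, including Slfn9, which was not called. The core was searched as GAAANNGAAA on both strands of RefSeq promoter windows (GRCm38.p6, the assembly of mm10), which run from 250 bases before the start site to 50 after it. All 7 members had a window. The Slfn5 window begins inside the span that the deposited table gives the gene, because its RefSeq start site lies further downstream. The 250 upstream bases are printed from 5′ to 3′ on the strand of the gene, with matches in capitals, and on the opposite strand the core reads as its reverse complement. They are chr11:82951852-82952101 for Slfn5, chr11:83020811-83021060 for the upstream of the 2 Slfn8 start sites, chr11:82991831-82992080 for Slfn9 and, for comparison as a riser without an exact match, chr11:83064862-83065111 for Slfn2.
Slfn5: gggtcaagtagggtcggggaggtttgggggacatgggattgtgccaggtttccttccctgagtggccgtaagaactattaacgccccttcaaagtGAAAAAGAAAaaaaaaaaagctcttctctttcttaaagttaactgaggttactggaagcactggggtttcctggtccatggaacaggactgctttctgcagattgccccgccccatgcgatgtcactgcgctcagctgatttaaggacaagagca
Slfn8: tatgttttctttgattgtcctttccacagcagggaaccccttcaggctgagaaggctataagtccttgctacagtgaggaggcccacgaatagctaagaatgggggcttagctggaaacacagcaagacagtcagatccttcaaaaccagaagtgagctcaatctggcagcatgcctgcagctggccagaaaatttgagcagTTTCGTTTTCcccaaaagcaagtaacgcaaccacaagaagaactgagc
Slfn9: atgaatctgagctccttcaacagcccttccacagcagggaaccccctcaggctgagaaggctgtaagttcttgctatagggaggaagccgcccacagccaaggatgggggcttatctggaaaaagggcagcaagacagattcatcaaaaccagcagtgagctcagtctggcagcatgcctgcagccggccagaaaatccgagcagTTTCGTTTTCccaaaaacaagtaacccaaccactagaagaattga
Slfn2: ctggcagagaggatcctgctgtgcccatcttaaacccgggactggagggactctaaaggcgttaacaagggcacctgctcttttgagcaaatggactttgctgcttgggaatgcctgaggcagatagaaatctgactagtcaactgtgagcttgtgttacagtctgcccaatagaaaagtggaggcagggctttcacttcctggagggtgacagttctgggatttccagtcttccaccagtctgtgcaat

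In Slfn5 the match began 155 bases before the start site on the gene's own strand. In Slfn8 and Slfn9 the same 10 letters, TTTCGTTTTC, began 48 and 45 bases before the start site, a match on the opposite strand. Upstream sequences of Slfn8 and Slfn9 were 85.0% identical over 233 aligned positions. Of the 7 members, 3 held the core in a window, compared with 3.99% of all 27025 genes with a window (3.44% of all 32851 windows). Slfn2 and Slfn4, both called higher, held no exact match within their windows, and neither did Slfn3 or Slfn1. With 1 mismatch allowed all 7 members held it, but so did 38.9% of all genes (35.4% of all windows). The gamma-activated site, searched as TTCNNNGAA, was in 0 of the members' windows and in 8.30% of all windows. For context, 32 of the 96 genes called higher that had a window held the core (33.3%), as did 315 of 8851 tested genes that were not called (3.56%). A match describes letters, and binding at these sites was not measured.

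**Figure D2:**
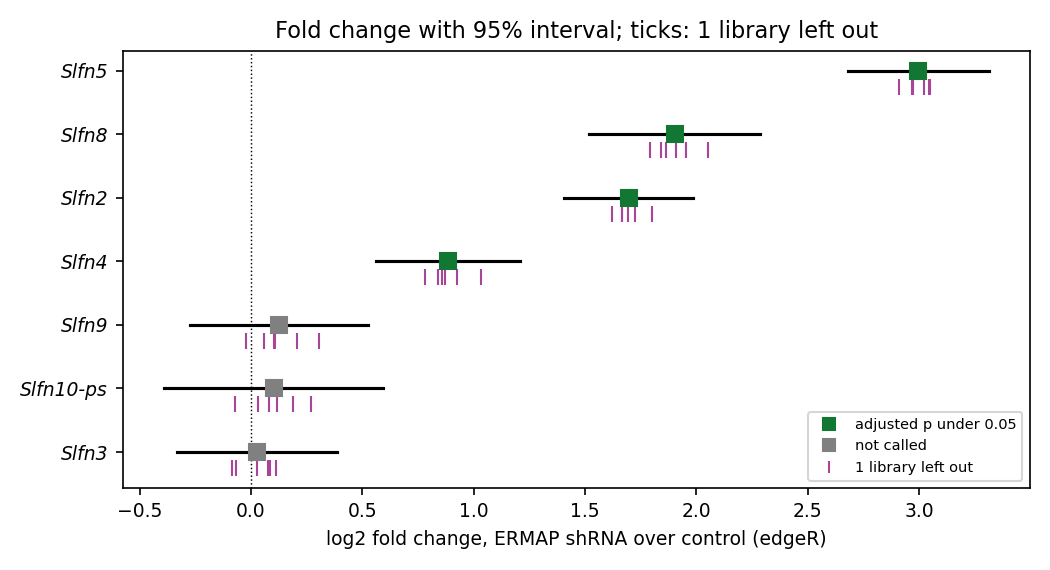
Log2 fold change of ERMAP shRNA over control for the 6 tested members and the pseudogene Slfn10-ps (squares, green where the adjusted p is under 0.05), with 95% intervals (lines) and the values when 1 library is left out (ticks). Slfn5, Slfn8, Slfn2 and Slfn4 lie above 0 with their intervals, and the intervals of Slfn9, Slfn10-ps and Slfn3 include 0.

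Slfn2, a short member whose loss in mice breaks the quiescence of T cells and monocytes, had the highest mean FPKM of the family in both groups and stood clear of Slfn4 only in the labelled libraries. Slfn2 (ENSMUSG00000072620, plus strand of chromosome 11, 83065112 to 83070678) had 334, 321 and 270 counts in control and 877, 930 and 1019 in the labelled libraries. Its FPKM were 13.7, 11.5 and 10.6 in control and 39.0, 37.0 and 40.6 in the labelled libraries, and the groups were well apart. Slfn2 rose 3.24-fold (95% interval 2.65 to 3.96), a log2 value of 1.70 (SE 0.13, edgeR adjusted p = 0.000367). The antisense gene Gm20234, which overlaps Slfn2, had 18 counts over the 6 libraries. Whether the counting used strand is not given. Slfn1 (ENSMUSG00000078763, plus strand of chromosome 11, 83116849 to 83122670), the founding member, described as a brake on thymocyte growth, had 0 counts in 5 libraries and 1 count in labelled replicate 2. A floor of 3 counts over the 3 control libraries corresponds to 0.0650 CPM, so Slfn1 was not detectable at this depth in either group.

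Slfn4, an intermediate member known from myeloid cells, rose, and its neighbour and close copy Slfn3 was not called. Slfn4 (ENSMUSG00000000204, plus strand of chromosome 11, 83175186 to 83190216) had 823, 741 and 608 counts in control and 1214, 1324 and 1244 in the labelled libraries. Its level went from 14.2, 11.2 and 10.1 FPKM to 22.7, 22.1 and 20.8 FPKM, with no overlap but with the lowest labelled CPM only 1.45 times the highest control CPM. The fold change was 1.85 (95% interval 1.48 to 2.31), a log2 value of 0.89 (SE 0.14, edgeR adjusted p = 0.0270). This call was lost when any single library other than control replicate 1 was left out (adjusted p 0.113 to 0.164, log2 values from 0.78 without control replicate 3 to 0.92 without labelled replicate 3), and it was kept without control replicate 1 (log2 value 1.03, adjusted p = 2.61e-09). Slfn3 (ENSMUSG00000018986, plus strand of chromosome 11, 83191330 to 83215154), studied in T cells and gut epithelium, had 234, 210 and 240 counts in control and 179, 254 and 228 in the labelled libraries. The Slfn3 level was 4.68, 3.68 and 4.62 FPKM in control and 3.89, 4.94 and 4.43 FPKM in the labelled libraries, which overlap. It differed by 0.03 on the log2 scale (95% interval -0.33 to 0.39, SE 0.16, adjusted p = 0.980 by edgeR), and its sign turned without control replicate 2 (-0.083) or labelled replicate 2 (-0.066).

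Slfn4 over Slfn3 was 3.03, 3.04 and 2.18 as a ratio of FPKM in control and 5.84, 4.49 and 4.70 in the labelled libraries, without overlap (exact permutation p = 0.1). Their longest transcripts were 92.9% identical over 1406 aligned bases. Exact sharing of 100-base windows with another gene was 0.271% for Slfn4 and 2.92% for Slfn3, in the latter case mainly with the pseudogene Gm11427, which lies 9.30 kb beyond Slfn3. Gm11427 had a log2 fold change of 0.11 (edgeR adjusted p = 0.948).

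The apart-standing control replicate 1 bore on the members to different degrees. Its CPM exceeded the mean of the other controls by 0.50 on the log2 scale for Slfn9, 0.43 for Slfn4, 0.43 for Slfn8, 0.31 for Slfn2 and 0.18 for Slfn3, and was lower by a log2 value of -0.26 for Slfn5. Without this library the log2 fold changes were 2.91 for Slfn5, 2.05 for Slfn8, 1.80 for Slfn2, 1.03 for Slfn4, 0.31 for Slfn9 and 0.09 for Slfn3. The same 4 members were called and Slfn9 was not (edgeR adjusted p = 0.113). For Slfn9 the overlap in FPKM between the groups came from this library alone. The other controls had 4.87 and 5.92 FPKM, and the lowest labelled library had 5.96 FPKM. Leaving out any other library kept the calls of Slfn5, Slfn8 and Slfn2.

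The makeup of the family's RNA shifted together with its total. Summed over the 7 members, levels were 42.4, 33.2 and 33.3 FPKM in control and 83.0, 82.9 and 82.7 FPKM in the labelled libraries, 2.28 times higher on average. Slfn2 made up 33.0% ± 1.53 of the summed FPKM in control and 46.9% ± 2.21 in the labelled libraries (SD, n = 3). Slfn5 went from 2.04% ± 0.466 to 6.999% ± 0.438 and Slfn8 from 3.81% ± 0.215 to 6.28% ± 0.434 (SD, n = 3). Slfn4, although it rose, took 32.4% ± 1.93 in control and 26.4% ± 1.11 in the labelled libraries, and Slfn9 took 16.8% ± 1.81 and 8.08% ± 0.782 (SD, n = 3). Slfn3 took 11.99% ± 1.61 and 5.33% ± 0.636 (SD, n = 3). Of these shares, those of Slfn2, Slfn5 and Slfn8 were higher in every labelled library than in any control library, and those of Slfn3, Slfn4 and Slfn9 were lower. A share falls for any member that rises less than the total, so the shares restate the fold changes and are no separate evidence. As shares of raw counts, a measure added after the data were seen that gives longer genes more weight, Slfn2 took 15.6% and 24.5%, Slfn5 3.66% and 13.9%, and Slfn9 28.3% and 15.1%. By counts Slfn4 led in both groups (36.5% and 32.8%), and its shares overlapped between groups.

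**Figure D3:**
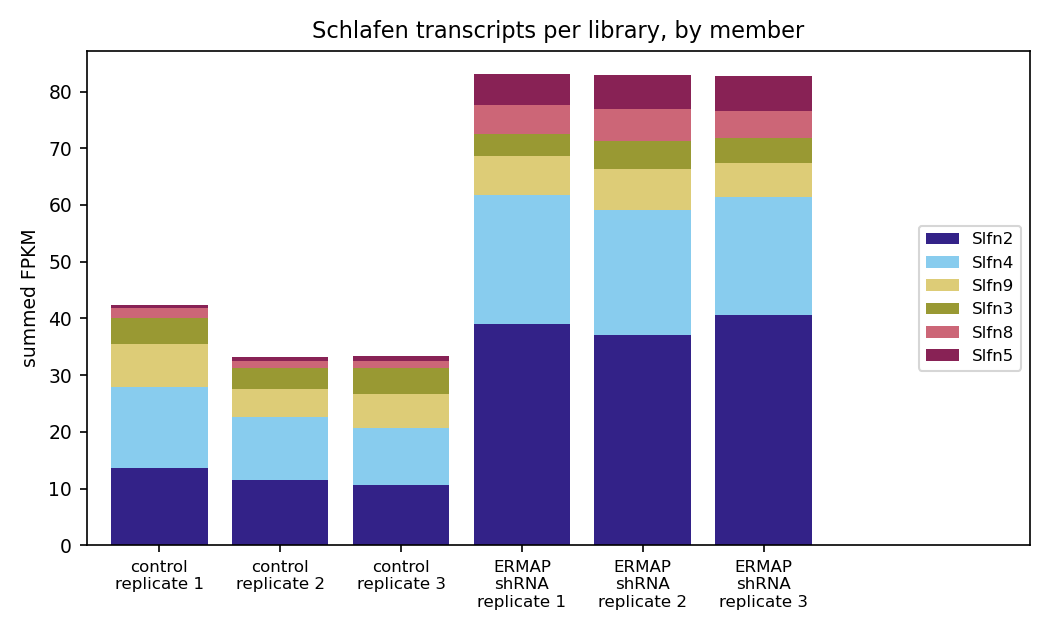
Summed FPKM of the Schlafen members in each library, with 1 colour per member (Slfn1, at 0 or 0.0356 FPKM, is not visible). The 3 labelled bars reach 82.7 to 83.0 FPKM and the control bars 33.2 to 42.4 FPKM, and the Slfn2 segment at the base grows most.

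Ordered by FPKM, a scale set by gene length, the control libraries ran Slfn2 (mean 11.96), Slfn4 (11.8), Slfn9 (6.12), Slfn3 (4.33), Slfn8 (1.39) and Slfn5 (0.723). In that order only the neighbours Slfn2 and Slfn4 overlapped between libraries. In the labelled libraries the order was Slfn2 (38.9), Slfn4 (21.9), Slfn9 (6.70), Slfn5 (5.80), Slfn8 (5.20) and Slfn3 (4.42). There Slfn2 stood clear of Slfn4, and Slfn4 of Slfn9, while each of the next neighbours down to Slfn3 overlapped. The FPKM ratio of Slfn2 to Slfn4 was 1.02 ± 0.047 in control and 1.78 ± 0.149 in the labelled libraries (SD, n = 3, exact permutation p = 0.1).

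All 7 members lie within 264 kb of chromosome 11, and the other genes tested around and between them were not called. Within 250 kb of the outermost members the file lists 41 other genes, of which 13 were tested. Of these, edgeR and DESeq2 called 0 (1, Mmp28, had an unadjusted edgeR p under 0.05), with log2 fold changes from -0.85 (Mmp28) to 0.23 (Nle1) and a median of 0.03. Among all tested genes edgeR called 1.01% higher and 0.136% lower, so 0 of 13 is near that share. At an unadjusted p under 0.05, 464 of all 12491 tested genes were higher and 380 lower. Between the members, the only other genes tested were pseudogenes. The nearest tested protein-coding gene before the cluster was Nle1, a ribosome assembly factor 42.9 kb away (log2 fold change 0.23, adjusted p = 0.920). The pseudogene Slfn10-ps, between Slfn8 and Slfn2, had 147, 140 and 92 counts in control and 130, 135 and 117 in the labelled libraries (log2 fold change 0.10, adjusted p = 0.954). Its longest transcript was 92.2% identical to that of Slfn8 over 3530 bases and 92.1% identical to that of Slfn9 over 3439 bases. Slfn14, the remaining long member, and Slfn5os, antisense to Slfn5, had 0 counts, and Slfnl1, a distant relative on chromosome 4, reached 5 counts over the controls and 4 over the labelled libraries.

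**Figure D4:**
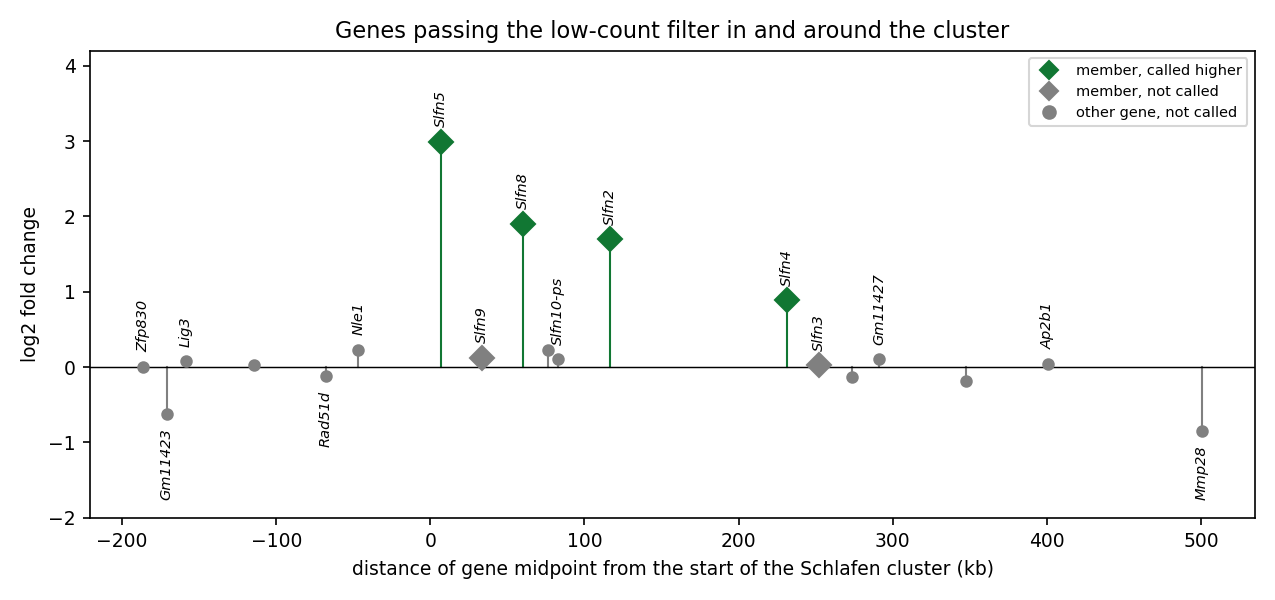
Log2 fold change of each tested gene (edgeR) by its distance in kb from the start of the Schlafen cluster, within 250 kb on either side. Diamonds are members and circles other genes, and green marks an adjusted p under 0.05. The 4 green diamonds are Slfn5, Slfn8, Slfn2 and Slfn4, with no tested gene between Slfn2 and Slfn4. All other points lie between -0.85 and 0.23.

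The rest of the interferon pathway was described from lists by role, written with earlier results of these data known and therefore no independent evidence of direction. The median log2 fold change of all tested genes was -0.01, and edgeR called 1.01% of them higher and 0.136% lower. No interferon ligand gene passed the filter. Of the 12 listed, Ifnb1, encoding interferon beta, had no control counts and 7 over the labelled libraries (2, 0 and 5). Of 8 tested receptor and kinase genes 0 were called by edgeR or DESeq2 and 0 had an unadjusted p under 0.05 (median 0.05). That 0 of 8 is near edgeR's share over all genes. Jak1, a kinase shared by interferon receptors, was at 23.1 ± 1.40 FPKM in control and 23.5 ± 1.33 FPKM in the labelled libraries (SD, n = 3). Of 10 transcription factors 3 rose and 0 fell (median 0.33). Irf7, which amplifies interferon responses, had a log2 fold change of 4.75 (SE 0.31), Irf9 2.01 (SE 0.11) and Stat2 0.69 (SE 0.11), with edgeR adjusted p from 4.51e-05 to 0.0243. Of 6 negative regulators 1 rose, Usp18, a protease that removes ISG15 and blocks the receptor, from 1.29 ± 0.341 to 26.6 ± 3.39 FPKM (SD, n = 3).

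Antiviral effectors were the list with the most calls, 26 of 30 higher and 0 lower, with a median log2 fold change of 2.98. That median is the same with Mx1, which had 0 control counts and 53 labelled counts, placed at its lower bound (at least 18.7-fold higher, with the 3 controls together set to a floor of 3 counts). Ifi44 rose from 0.645 ± 0.191 to 29.9 ± 1.73 FPKM, Cmpk2 from 0.187 ± 0.038 to 8.36 ± 0.557 FPKM and Rsad2, which encodes viperin, from 0.028 ± 0.028 to 1.16 ± 0.088 FPKM (SD, n = 3). Beside these 30 genes, 15 had a larger log2 fold change than Slfn5, 20 than Slfn8, 22 than Slfn2 and 26 than Slfn4.

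Processes that Schlafen proteins act on were followed in lists of transfer RNA cleavage and protection and of the G1 phase and quiescence. Of 8 tested genes of transfer RNA cleavage and protection 0 were called (median 0.12), with Rnh1, the inhibitor of angiogenin, at 98.1 ± 5.76 and 90.9 ± 0.969 FPKM (SD, n = 3). At an unadjusted p under 0.05 1 of these genes differed, and DESeq2 called 0, but library weights called 2 of them higher. Of 26 tested genes of the G1 phase and quiescence 1 rose, Ccnd2, which encodes cyclin D2, from 0.303 ± 0.044 to 1.29 ± 0.089 FPKM (SD, n = 3), and the median was 0.05. At an unadjusted p under 0.05 4 of these genes differed, 2 of them lower, and the 2 list genes that library weights called lower were G1 genes.

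**Figure D5:**
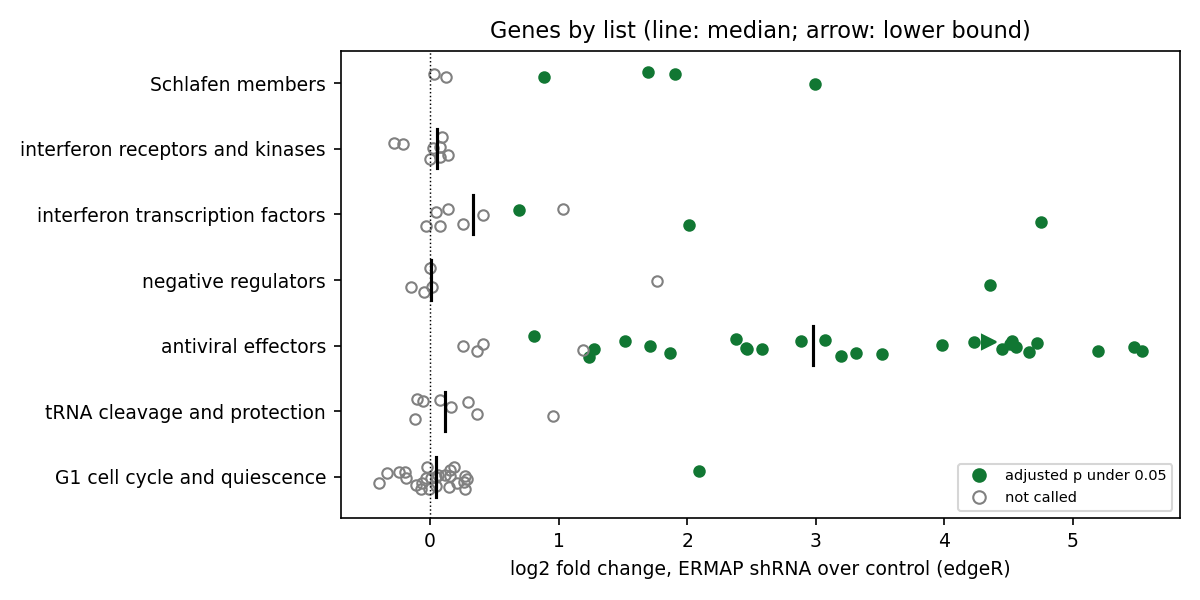
Log2 fold changes (edgeR) of the tested Schlafen members and of the genes of 6 lists, with 1 point per gene, filled where the adjusted p is under 0.05. Vertical lines are medians, the vertical scatter has no meaning, and the arrow marks the lower bound of Mx1. Filled points lie mainly among the antiviral effectors, whose median is 2.98, and the 4 filled Schlafen points lie between 0.89 and 2.995.

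Genes whose profile over the 6 libraries was most like that of each member were sought among 10772 tested protein-coding genes. Likeness was the Euclidean distance between log2 CPM values centred on the control mean. With that centring, the distance of a member from an unchanged gene grows with the member's own fold change. The genes found are therefore mainly those with a similar fold change, and the median distances do not measure closeness. Closest to Slfn5 were Trp53i11 (distance 0.336) and Ddx58, which encodes the RNA sensor RIG-I (0.405), where the median gene was at 5.15. For Slfn8 they were Ccnd2 (0.293) and Phf11d (0.369), against a median of 3.31. Slfn2 was nearest to Fcgr1, a high-affinity IgG receptor (0.191), and to Esr1 (0.216), whose mean level was 0.025 FPKM in control, against a median of 2.98. Slfn4 was nearest to Dtx3l (0.276), which was not called (edgeR adjusted p = 0.144), and to Ifit2 (0.276), against a median of 1.66. The uncalled Slfn9 was nearest to Prkd3 (0.155) and Chek1 (0.160), and Slfn3 to BC052040 (0.088) and Tarbp1 (0.103), none of them called.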

How the data were processed

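RNA-seq of RAW264.7 cells was measured in 3 control and 3 ERMAP shRNA libraries, made with the NEBNext Ultra kit per the labels' protocols. The submitters' processing notes name the aligner HISAT2 and the mouse build mm10. For the counting tool and its strand setting, the sources used here give nothing. The authors deposited raw counts per gene and FPKM per gene in separate tables with the same column names, and mean FPKM per group in another, per the file headers. The deposited columns name a group and a number, and the numbers of the column names are used as replicate numbers. No column was left unmatched.

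Counts were tested with edgeR 4.0.16 (R 4.3.3): TMM scaling, filterByExpr with a minimum count of 10, the robust quasi-likelihood test and Benjamini-Hochberg adjustment over all 12491 genes, called under 0.05. Levels are the authors' FPKM, since FPKM allows genes to be compared per length. Totals of 13447021 to 16602734 counts limit the precision for genes with few counts, and the floor of 3 counts covers counting error only. The script was tested on simulated data. Alternatives used DESeq2 1.42.0, limma 3.58.1 (voom, library weights, or log2(FPKM + 1) and log2(FPKM + 0.1)), other scalings and filters, a replicate block and left-out libraries. Single ratios were compared by exact two-sided permutation.

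The family and the gene lists were chosen with earlier results of these data known, and the members follow from the gene names. Named genes were all members, other genes named Slfn, Ermap, the nearest tested coding gene on each side (1 of them is not reported here), up to 3 called genes per list with the largest changes and a mean of at least 1 CPM (or the most abundant gene of a list without calls), and the 2 coding genes most like each member. Mx1, Ifnb1, Mmp28 and Gm11427 were added after their values were seen. Identity was computed on nucleotide transcripts, and protein sequences were not used here.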

Additional observations from a re-analysis of the deposited data

How the results depend on the processing

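Slfn2, Slfn5 and Slfn8 kept their direction and calls under all 17 alternatives, with log2 fold changes of 1.62 to 1.85, 1.98 to 3.05 and 1.38 to 2.05. Slfn4 kept its direction but missed the threshold with log2(FPKM + 1) and no filter (0.85, adjusted p = 0.111), and ranged from 0.78 to 1.03 over left-out libraries. The replicate numbers did not pair the samples (correlations of deviations -0.130, -0.278 and 0.178), and with them as a block Slfn4 was 0.90 (adjusted p = 0.0601), 81 genes were called higher and 3 lower. Slfn3 turned to -0.048 with library weights and ranged from -0.083 to 0.11 over left-out libraries. Over left-out libraries Slfn9 ranged from -0.021 to 0.31 and Slfn10-ps from -0.072 to 0.27, negative without control replicate 3 (-0.072). Over all genes, the 126 higher and 17 lower calls became 202 and 71 with DESeq2, 487 and 430 with library weights, and 81 and 5 with log2(FPKM + 1) and no filter. Without a count filter 32 genes were lower. Left-out libraries gave 73 to 342 higher and 3 to 280 lower, with the highest of each without control replicate 1. With library weights 2 genes of the 7 lists were lower, against 0, and Ermap was called higher (1.66, adjusted p = 0.0382). The cause of these shifts was not tested. Depth limits Slfn1, Ermap and the interferon ligands.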
